A study of Homo sapiens with 2 samples.

Results

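EGR1 ChIP intervals on the long arm of human chromosome 19 are described here, with the zinc-finger gene blocks of that arm set against its remainder. The members are the deposited intervals on chromosome 19 that start above position 28600001 (GRCh37), and there were 331 of them among 7709 in all. They came from 1 chromatin immunoprecipitation and sequencing (ChIP-seq) library made with an EGR1 antibody from t-HESC cells, a line of immortalised stromal cells from the human endometrium kept in growth medium with no treatment. The series also holds 1 input library of the same line, which was not analysed here. The rule that picks the members reads position alone, though the arm and the blocks were proposed with earlier results of these data known. With 1 library there was no spread between cultures, and no test over samples was possible. No label or file gives the number of reads, so the depth is unknown. All intervals in brackets are at the 95% level, cover counting error only and treat EGR1 intervals as independent. Neighbouring EGR1 intervals need not be independent, so these ranges can be too narrow.

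EGR1 is a zinc-finger transcription factor of the immediate early response that binds GC-rich DNA, and in the uterine lining it has been studied in the change of stromal cells into decidual cells. The long arm of chromosome 19 carries many genes for another kind of zinc-finger protein, in which an array of zinc fingers is often joined to a KRAB domain. KRAB zinc-finger proteins recruit the co-repressor TRIM28 and are known for silencing transposable elements. Their genes lie side by side in tandem arrays that grew by duplication.

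The blocks were given as 3 stretches, named here by their distance from the centromere. The proximal block ran from 36200001 to 38400000, the middle block from 52500001 to 54200000 and the distal block from 57000001 to 59100000. In the gene order of RefSeq on GRCh38.p14, 180 of 844 protein-coding genes from UQCRFS1 to the end of the long arm (21.3%) had a symbol starting with ZNF, ZFP, ZSCAN, ZIM or ZKSCAN. Of these, 152 stood in 4 runs of at least 10 such genes with at most 3 other genes between them. The runs were ZNF565 to ZNF573 (29 zinc-finger genes), ZNF283 to ZNF180 (20), ZNF577 to ZNF331 (40) and ZNF787 to ZNF446 (63). The runs are on another build, so they were not placed on the blocks. For the same reason no interval was assigned to a gene, exon or intron. There were 4 runs but 3 blocks, so a whole run may lie in the remainder of the arm. That remainder is not shown to be free of zinc-finger genes. The contrasts below therefore need not set zinc-finger genes against DNA without them.

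The DNA under the intervals was not analysed here. To show what EGR1's known motif looks like beside genes of this kind, the letters GCGTGGGCG and the variant GCGGGGGCG were searched on both strands of RefSeq promoters (GRCh38.p14, from 250 bases before to 50 after a gene's start). A single stretch of 9 bases cannot match both motifs on the same strand. Of 177 promoters of genes in the runs (131 of 152 genes matched), 1 held GCGTGGGCG and 6 held GCGGGGGCG, or 3.95% for either (1.60 to 7.98%). Either motif was in 5.66% of 689 promoters of other long-arm genes (4.06 to 7.66%) and in 7.41% of 22199 promoters of all coding genes (7.07 to 7.77%). The range for the runs takes in both of these shares. These ranges treat promoters as independent, though the 177 promoters came from 131 genes. The ZNF816 match is also counted again at its read-through gene, so the range for the runs can be too narrow. The median GC content was 60.7% in the runs and 62.3% over all coding genes. Matches at 5 genes of the runs are written 5′ to 3′ on the motif's strand, with the motif in capitals and 10 bases on each side. Of the remaining matches, 1 was at the read-through gene ZNF816-ZNF321P, which has the ZNF816 match. The other lay too near the end of its promoter sequence to be written with 10 bases on each side. All these matches are of the reference sequence. They describe the reference promoters and are not shown to lie under an interval.
ZNF432, motif centre 22 bases upstream of the start, on the gene's strand: gttgggggagGCGGGGGCGggtgtttcct
ZNF816, 141 bases upstream, on the opposite strand: ggaggagtccGCGGGGGCGggaaaggggc
ZNF320, 179 bases upstream, on the opposite strand: tgaggggtcgGCGGGGGCGagaagcgggt
ZNF671, 24 bases upstream, on the gene's strand: tgcggggggtGCGTGGGCGggacttccgg
ZSCAN1, 111 bases upstream, on the gene's strand: ggagggcacgGCGGGGGCGgggcgctcat

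The zinc-finger gene blocks held EGR1 intervals at a density that could not be told apart from that of the remainder of the arm. They held 65 intervals on 5.98 Mb, or 10.9 per Mb (8.38 to 13.8). The remainder held 266 on 24.5 Mb, also 10.9 per Mb (9.59 to 12.2), and the ratio was 1 (0.751 to 1.32). That remainder takes in 4.40 Mb next to the centromere with 1 interval, at 30336366. Counted from 33 Mb on, the remainder had 13.2 intervals per Mb (11.6 to 14.9). The blocks then had 0.824 times its density (0.618 to 1.08), and a ratio of 1 lies within that range. The arm as a whole had 0.731 times the density of the short arm of the chromosome (0.627 to 0.853) and 4.24 times that of all other intervals of the list (3.78 to 4.73). The short arm was measured only from its first interval to its last. Counted from 33 Mb on, the long arm had 0.852 times the short arm's density (0.73 to 0.994). No values for gene density, copy number or mappability were at hand for these stretches, and their part in the densities was not tested.

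**Figure D1:**
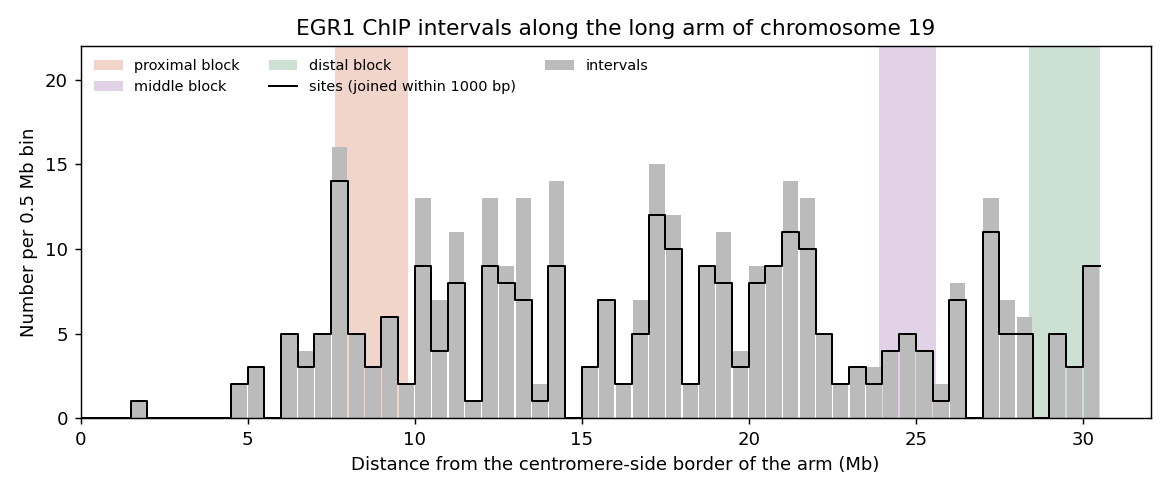
Number of EGR1 intervals (grey bars) and of sites after joining intervals within 1000 bp (black line) in 0.5 Mb bins along the long arm, by distance from the arm's centromere-side border in Mb, with the 3 blocks shaded. The bars rise above the line mainly outside the blocks, and the proximal block opens with its densest bin.

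The densities of the blocks could not be told apart from one another. The proximal block had 30 intervals, or 13.6 per Mb (9.20 to 19.5), the middle block 16, or 9.41 per Mb (5.38 to 15.3), and the distal block 19, or 9.11 per Mb (5.49 to 14.2). These ranges overlap. In the proximal block, 17 of the 30 intervals lay in the first 0.5 Mb, at 34 per Mb (19.8 to 54.4). The remaining 1.70 Mb held 13, at 7.65 per Mb (4.07 to 13.1), and the first stretch was 4.45 times denser (2.03 to 9.95). This stretch was singled out after the counts were seen, and the ratio does not allow for that choice. With it set aside, the blocks had 48 intervals at 8.75 per Mb (6.45 to 11.6). That is 0.664 times the density of the remainder from 33 Mb on (0.478 to 0.906). Counted in sites, that ratio was 0.812 (0.579 to 1.12), and against the whole remainder the ratio of intervals was 0.806 (0.58 to 1.1). Both of these ranges take in 1. The range given for 0.664 assumes counts whose variance equals their mean. In 100 kb bins of the remainder from 33 Mb on, the variance was 2.92 times the mean, so that range is likely too narrow. Whether zinc-finger genes occupy the first 0.5 Mb of the block was not determined.

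**Figure D2:**
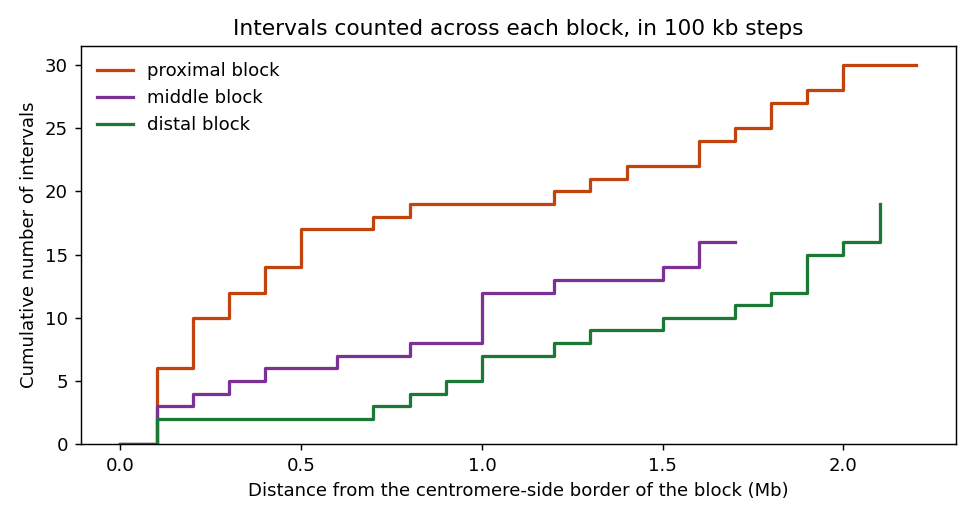
Cumulative number of EGR1 intervals (vertical axis) across each block in steps of 100 kb, by distance in Mb from the block's centromere-side border. The proximal block reaches 17 intervals within 0.5 Mb and 30 at its end, while the middle and distal blocks climb to 16 and 19.

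The difference that held between blocks and remainder was in how close the EGR1 intervals lay to one another. Intervals with at most 1000 bp between them were counted as 1 site, and over the whole list 27.3% of intervals fell in a site of several. In the blocks, 6 of 65 intervals did so, or 9.23% (3.46 to 19%). In the remainder of the arm, 96 of 266 did, or 36.1% (30.3 to 42.2%). The blocks were lower by 26.9 percentage points (Newcombe interval of blocks minus remainder, -34.6 to -15.9). Intervals of 1 site count together here, as 3 sites in the blocks and 43 in the remainder, so the range by interval is too narrow. Against all other intervals of the list the difference was -18.2 points (-23.2 to -8.66), and against the short arm -18.5 points (-25.5 to -7.98). The remainder of the arm was itself above the other intervals of the list, by 9.14 points (3.51 to 15.2).

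The low share was seen in each of the 3 blocks. It was 4 of 30 intervals in the proximal block (13.3%, 3.76 to 30.7%) and 2 of 16 in the middle block (12.5%, 1.55 to 38.3%). No interval of 19 in the distal block had a close neighbour, where 3 counts of the total would be 15.8% and the exact range reaches 17.6%. Against the remainder, the difference was -22.8 points for the proximal block (-32.7 to -5.50) and -36.1 points for the distal block (-42.0 to -18.4). For the middle block, which has the fewest intervals, it was -23.6 points and its range took in 0 (-34.4 to 0.575). Both close pairs of the proximal block lay in its first 0.5 Mb.

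**Figure D3:**
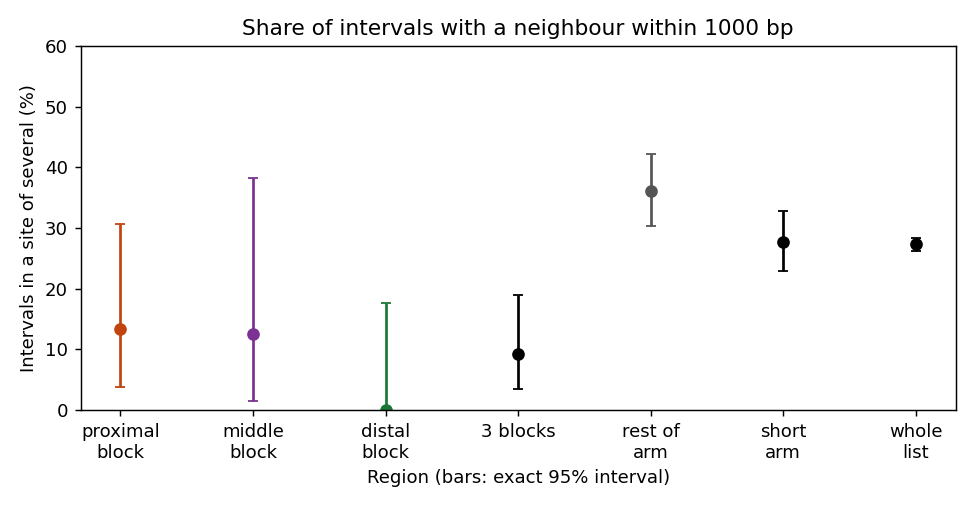
Share of EGR1 intervals in a site of several (vertical axis, percent), by region, with exact Clopper-Pearson intervals at the 95% level. The 3 blocks together stand at 9.23% and the remainder of the arm at 36.1%, and their error bars do not overlap.

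Counted by site, the pattern was the same. The 65 intervals of the blocks formed 62 sites, of which 3 (4.84%, 1.01 to 13.5%) held several intervals, and each of these held 2. Over the whole list, 966 of 6573 sites (14.7%) held several. The 266 intervals of the remainder formed 213 sites, of which 43 (20.2%, 15.0 to 26.2%) held several, namely 34 with 2, 8 with 3 and 1 with 4. The difference was -15.3 points (-22.0 to -5.61). In sites per Mb, the blocks had 10.4 (7.94 to 13.3) and the remainder from 33 Mb on had 10.5 (9.18 to 12.1), a ratio of 0.982 (0.728 to 1.31). Without joining, the ratio to that stretch was 0.824 (0.618 to 1.08), and both ranges take in 1. Joining neighbours removed more intervals from the remainder than from the blocks.

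The 3 paired sites of the blocks can be given one by one. The first opened the proximal block, at 36207435 to 36209922, and set an interval with a score of 134 beside one of 19. The second lay at 36393753 to 36395166, with scores of 81 and 15. In both, a strong interval stood beside a weak one. The third, at 52598378 to 52599076 in the middle block, held scores of 15 and 19, both under the list's median of 26. In the remainder, the site with 4 intervals spanned 41857466 to 41860356 (2891 bp), with scores of 22, 18, 46 and 47. Sites of several spanned a median of 1210 bp in the remainder (range 614 to 2891 bp) and 699, 1414 and 2488 bp in the blocks. Whether such a site is a single enriched stretch that peak calling broke up was not tested.

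Close pairs are likelier where intervals are dense, and local density differed between the regions. Among 100 kb bins with 2 to 3 intervals, 2 of 28 intervals in the blocks were in a site of several (7.14%, 0.877 to 23.5%), against 24 of 93 in the remainder from 33 Mb on (25.8%, 17.3 to 35.9%). In bins with 4 or more, the figures were 4 of 14 in the blocks (8.39 to 58.1%) and 72 of 130 in the remainder (55.4%, 46.4 to 64.1%). The share in the blocks was the lower one in both classes, but within each class the ranges overlapped. Bins are sorted here by a count that a close pair itself raises. How much of the difference goes with local density was not tested.

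The median gap between neighbouring intervals was longer in the blocks, but the arm's longest gap, 2829359 bp, lay in the remainder. Gaps within 1000 bp numbered 3 in the blocks and 53 in the remainder, so the medians are not independent of the close-neighbour result. The median gap was 58582.5 bp over 62 gaps within the blocks (quartiles 18779.8 and 121233.2 bp) and 24096 bp over 263 gaps within the remainder (quartiles 3353.5 and 70687 bp). Gaps over 100 kb made up 33.9% in the blocks (22.3 to 47.0%) and 17.1% in the remainder (12.8 to 22.2%). The longest gap in a block, 604629 bp, ran from 57078999 to 57683627 in the distal block. In the proximal block the longest was 432134 bp and in the middle block 327460 bp.

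**Figure D4:**
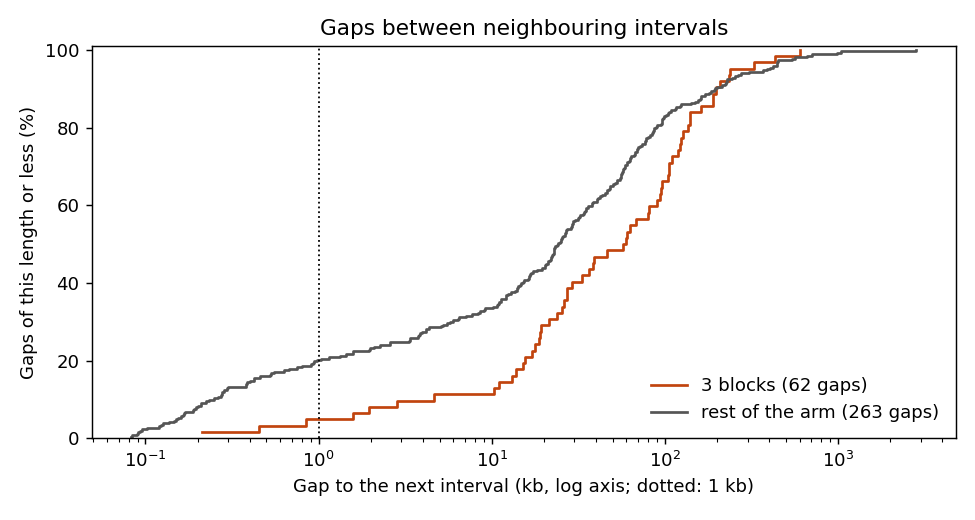
Cumulative share of gaps between neighbouring EGR1 intervals (vertical axis, percent) by gap length in kb on a log axis, for 62 gaps within the 3 blocks and 263 within the remainder of the arm. The curve of the blocks lies below that of the remainder over most of its length, with 3 gaps within 1 kb against 53.

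The number of intervals per bin varied less in the blocks. In 60 bins of 100 kb, the variance of the number of intervals was 1.39 times the mean, and 22 bins were empty (36.7%, 24.6 to 50.1%). In 201 bins of the remainder from 33 Mb on it was 2.92 times the mean, and 96 bins were empty (47.8%, 40.7 to 54.9%). A bin of the blocks held at most 6 intervals, and a bin of the remainder, which has more bins, at most 11. In sites per bin, the variance over the mean was 1.18 in the blocks and 1.88 in the remainder. Bins with 5 or more intervals numbered 15 of 201 in the remainder and 1 of 60 in the blocks, the first bin of the proximal block. Without the first 0.5 Mb of that block, the variance of intervals over their mean was 1.02. These ratios are descriptions with no test, and the regions differ in mean.

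Scores in the blocks and in the remainder differed by less than counting error. Each interval carries 1 summit score, a whole number for which the labels and files state no unit. The median was 26 in the blocks (binomial interval of the median 23 to 33, quartiles 20 and 36) and 28 in the remainder (26 to 31, quartiles 21 and 38). Over the whole list, 51.0% of intervals scored 26 or more. In the blocks, 33 of 65 did so (50.8%, 38.1 to 63.4%), and in the remainder 161 of 266 (60.5%, 54.4 to 66.4%), a difference of -9.76 points (-22.9 to 3.44). A score of 57 or more, the 90th percentile, was reached by 10.2% of the list. It was reached by 11 intervals of the blocks (16.9%, 8.76 to 28.3%) and 27 of the remainder (10.2%, 6.80 to 14.4%). The difference was 6.77 points (-1.57 to 18.1), and its range took in 0. It was 0.17 points (-7.62 to 13.4) with each block narrowed by 0.2 Mb and 3.63 points (-4.81 to 16.6) with the first 0.5 Mb of the proximal block counted as remainder.

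The highest scores of the arm were shared between blocks and remainder. Of the 10 highest, 3 lay in the blocks, and of the 20 highest, 7, while the blocks held 65 of the arm's 331 intervals. The lowest score of those 20, 71, was shared by a further interval of the proximal block, left out for its higher start. The arm's top score, 215, was in the remainder at 48281168 to 48282377, an interval 1210 bp wide. A score of 214 followed in the proximal block at 36869462 to 36870232, 771 bp wide. These stood at places 5 and 6 of the whole list. Next came 134 in the proximal block, then 133 at 44174015 to 44174715, 131 at 54959748 to 54960553 and 119 at 39892554 to 39893706, all 3 in the remainder. The other high scores of the remainder were 98 at 39616151 to 39616563, 96 at 49945819 to 49947235, 94 at 43979123 to 43979745 and 91 at 48246293 to 48247445.

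In the proximal block, scores ran from 14 to 214, against 13 to 215 in the remainder. Its median of 23.5 (19 to 33) was the lowest of the 3 blocks, and 12 of 30 intervals scored 26 or more (40%, 22.7 to 59.4%). That share was 20.5 points under the remainder's (-37.0 to -1.86). The share at 57 or more was 9.85 points over the remainder's, and the range took in 0 (-1.46 to 27.4). Over the whole list 10.2% of intervals reached 57, and in this block 6 did (20%, 7.71 to 38.6%). Besides those of 214 and 134, they scored 89 at 38085026 to 38085832, 81 at 36394420 to 36395166, and 71 at both 36389701 to 36390925 and 36505157 to 36505795. The interval scored 214 was isolated, with 238740 bp to the interval before it and 38909 bp to the next, which scored 33. Past that neighbour came the block's longest gap.

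The middle block had 16 intervals with a median score of 33.5 (20 to 58), and 4 of them reached 57 (25%, 7.27 to 52.4%). That share was 14.8 points over the remainder's, with a range that took in 0 (-0.556 to 39.5). The highest score, 97, was at 52799702 to 52800991, and at 1290 bp this was the widest interval of any block. It was followed by 76 at 53465843 to 53466555, 67 at 54057410 to 54058207, 58 at 54041136 to 54041845 and 41 at both 52839396 to 52839891 and 53606520 to 53607152. The intervals scored 67 and 58 were the last of the block and lay 15564 bp apart. The interval scored 76 closed a group of 4 intervals from 53400991 on, whose gaps were 25422, 18692 and 19370 bp. The first 4 intervals of the block, by contrast, scored 15 to 20.

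In the distal block 1 of 19 intervals reached 57 (5.26%, 0.133 to 26.0%), and the median score was 28 (21 to 34). That interval, at 58919254 to 58920065, scored 67 and was 812 bp wide. The next were 46 at 57946481 to 57946903, 40 at 58874326 to 58874625, 35 at 59084180 to 59084505 and 34 at both 58661742 to 58662035 and 58789985 to 58790415. The one scored 35 is the last interval of the chromosome in the list. With so few intervals, the shares of high scores in the distal and middle blocks could not be told apart (difference of middle minus distal 19.7 points, -4.66 to 44.6).

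**Figure D5:**
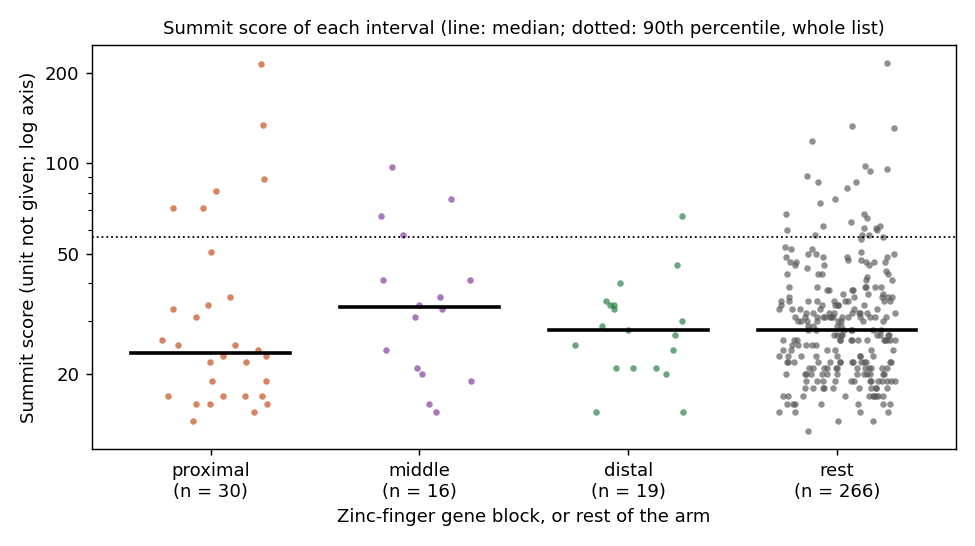
Summit score of each EGR1 interval on a log axis (unit not given), by block and for the remainder of the arm, with the median as a line and the list's 90th percentile of 57 dotted. The points of all 4 groups cover much the same range below 57, and 6, 4, 1 and 27 points lie at or above it.

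Widths rose with the scores in both regions and differed between them by less than counting error. The median width was 326 bp in the blocks (294 to 433) and 346 bp in the remainder (332 to 378). Widths of 800 bp or more were found in 6.08% of the list, in 5 intervals of the blocks (7.69%, 2.54 to 17.0%) and in 21 of the remainder (7.89%, 4.95 to 11.8%). The smallest width, 207 bp, was found in 4.79% of the list, in 4 intervals of the blocks and in 10 of the remainder. Among intervals scored under 26 the median was 271 bp in the blocks and 270 bp in the remainder. From 26 to 56 it was 427 and 396 bp, and from 57 upward 798 and 714 bp. The 11 high-scored intervals of the blocks were all at least 639 bp wide, whereas the 27 of the remainder reached down to 333 bp. The widest interval of the arm, 1853 bp at 55690471 to 55692323 in the remainder, had a score of 60.

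The block borders lay in gaps of unequal length. Before the proximal block, the last interval ended at 36135631 with a score of 35, and the block's first interval began at 36207435. After it, the gap from 38183273 to 38674287 (491015 bp) crossed the border, and the next interval scored 26. The middle block was entered through a gap of 453874 bp after an interval ending at 52097974 (score 32), and its first interval, at 52551849 to 52552055, scored 20. It was left through one of 313640 bp, to an interval at 54371848 to 54372074 scored 22. At the lower border of the distal block the neighbours were close: an interval ending at 56989368 scored 35, and the block's first interval, at 57018813 to 57019062, scored 15.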

How the data were processed

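Per the labels' protocols, nuclei were sonicated, complexes were isolated with the antibody, and adapter-ligated DNA of 200 to 300 bp was amplified over 18 PCR cycles. The build was GRCh37.p2 and the tools named are MACS2 2.1.0, MACS and BWA, per the submitters' processing notes. Options, thresholds and the handling of duplicate reads are not stated there. The authors deposited interval and summit positions and 1 score per summit, used only to rank and describe intervals within this list. Peaks came from 1 ChIP library.

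Starts were read as BED positions and are printed counting from 1. Blocks and remainder were assigned by interval start, and the arm was measured to the end of its last interval. The short arm and the other chromosomes were measured from the first interval to the last. Densities have exact Poisson intervals, ratios exact conditional binomial ones, shares exact Clopper-Pearson ones and share differences Newcombe's. Measures were tested on simulated data with independent counts. How well the ranges hold for counts as uneven as those seen here was not tested. Intervals named are the 5 highest-scored per block, the 8 highest-scored of the remainder, the widest, the site of 4 and those at block borders. Others were named after their values were seen. The members, blocks and measures were chosen with earlier results of these data known. Gene and motif assignment of intervals, planned for a GRCh37 genome, was not run. Tools were scipy 1.17.1, pandas 2.3.3, numpy 2.4.6 and matplotlib 3.10.9 under Python 3.11.15.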

Additional observations from a re-analysis of the deposited data

How the results depend on the processing

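The lower share of close neighbours in the blocks kept its direction in all 9 alternatives run, with a difference from -21.7 to -35.4 percentage points. Its 95% range stayed below 0 in all 9, but these ranges are by interval and so too narrow. By site, the difference as reported was -15.3 points (-22.0 to -5.61), and no alternatives were run for it. Narrowing each block by 0.2 Mb gave -35.4 points (-41.1 to -25.7), since both close pairs of the proximal block and the pair of the middle block lie near the lower block borders. The density ratio of blocks to remainder was 1.67 (0.747 to 3.47) for scores of 57 or more. It was 0.639 (0.461 to 0.871) with the first 0.5 Mb of the proximal block counted as remainder and the remainder taken from 33 Mb on, an alternative chosen after seeing the data. Of the 50 alternative values, 47 stayed within the 95% range of the reported one and 3 moved outside it. Differences whose range took in 0 changed sign in some alternatives. The width difference, -0.202 points as reported, was 1.91 points (-4.21 to 11) with the blocks widened by 0.2 Mb. Without the first 0.5 Mb of the proximal block, the median score of the blocks was 28.5 against 28 in the remainder. Leaving out single blocks and moving the first 0.5 Mb were chosen after seeing the data. No paired analysis was possible because there is 1 ChIP library. With no replicate and an unknown depth, every value describes this library only.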

Other observations

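Outside the blocks, some stretches of the arm from 33 Mb on had no EGR1 interval over longer distances than any stretch within a block. The longest ran from 42928243 to 43967533 (1039291 bp), and the next from 33764851 to 34745235 (980385 bp). Gaps of 705886 bp from 54984585 and of 658572 bp from 56167212 followed, and then came the longest gap of a block, 604629 bp. The interval after the longest gap, at 43967534 to 43968175, had a score of 38, and the one after that, at 43979123 to 43979745, had 94. The next megabase, from 44000001 to 45000000, held 10 intervals with a median score of 34.5 and a highest score of 133. The densest megabases of the arm started at 41000001, with 24 intervals in 17 sites, and at 36000001, with 23 in 21 sites. These stretches were picked after their values were seen, and which genes they hold was not analysed.

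In the remainder of the arm, intervals in sites of several had a median score of 27 (96 intervals) and single ones 29.5 (170 intervals). In the blocks these medians were 19 (6 intervals) and 27 (59 intervals). Among single intervals alone, a score of 57 or more was found in 9 of 59 in the blocks (15.3%, 95% interval 7.22 to 27.0%) and in 19 of 170 in the remainder (11.2%, 6.86 to 16.9%). The difference was 4.08 percentage points (-4.91 to 16.0).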
